A study of Homo sapiens with 8 samples.

Results

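Broad ORCA loci are places where a single ChIP-seq peak of ORCA spanned at least 3000 bp. ORCA, also named LRWD1, is a WD-repeat partner of the origin recognition complex, which marks the places where DNA replication can start. It was mapped in U2OS cells, a human osteosarcoma line, in 3 samples synchronized at early, mid and late G1. Another U2OS sample, of no stated stage, was used for MeDIP, an immunoprecipitation of DNA fragments that carry methylated CpG. Each of these 4 samples came with 1 peak list, there was 1 sample per group, and their 4 inputs were not analysed here. The labels do not say how the cells were synchronized, which ORCA antibody was used or how deep the libraries were.

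The loci were selected on their measured peak width. Peaks of 3000 bp or more (end minus start) were taken from the lists for chromosomes 1 to 22, without the first 7 Mb of chromosome 7 and without chromosome 8 from 140 Mb on. This gave 91 of 8531 early peaks (1.07%), 102 of 8275 mid peaks (1.23%) and 48 of 991 late peaks (4.84%). Since width chose them, these counts and the widths below are a description. The late list also bears another label of the peak caller, the program that finds peaks, than the early and mid lists. Widths and counts of late G1 may therefore not be comparable with those of the other stages. Joining the 241 broad peaks that overlapped across stages made 147 loci, which lay in 145 of the 14758 ORCA regions obtained by joining all ORCA peaks of the same chromosomes.

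ORCA is known for its binding to heterochromatin, the compact and mostly silent part of the genome, where it associates with repressive histone methylation and with the origin recognition complex. Heterochromatin is rich in repeated DNA. In a tandem repeat array a unit is copied head to tail, as in D4Z4, whose unit holds the DUX4 gene, which encodes a transcription factor of the early embryo whose misexpression in muscle causes facioscapulohumeral dystrophy. In such arrays a read that matches several copies has several possible origins, and the labels do not say how such reads were placed.

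The sequences below show what such copies look like. They come from RefSeq in build GRCh38.p14, not from the build of the peaks (hg19), and each runs 5′ to 3′ on the strand of its gene, from 250 bases before to 50 bases after the gene's start. The first is the DUX4 window at chr4:190173524-190173823, on the plus strand, with the CG dinucleotides, the sites that MeDIP reads when they are methylated, in capitals. It holds 25 of them, and 32.0% of the 35116 promoter windows in the table hold at least as many.

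DUX4: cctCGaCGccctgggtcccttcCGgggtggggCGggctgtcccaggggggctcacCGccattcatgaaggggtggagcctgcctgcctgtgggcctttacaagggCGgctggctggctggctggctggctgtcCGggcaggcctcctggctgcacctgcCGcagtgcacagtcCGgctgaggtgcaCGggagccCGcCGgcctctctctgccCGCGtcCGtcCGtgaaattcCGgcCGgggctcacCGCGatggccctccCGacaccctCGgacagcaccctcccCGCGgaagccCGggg

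The other pair is from the TAF11L genes, a tandem family at 5p15 related to the general transcription factor TAF11, at chr5:17518117-17518416 on the plus strand and chr5:17585709-17586008 on the minus strand. Capitals mark the 1 base that differs. Among the 13 TAF11L windows in the table, 5 copies have exactly the first sequence and 2 copies exactly the second.

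TAF11L3: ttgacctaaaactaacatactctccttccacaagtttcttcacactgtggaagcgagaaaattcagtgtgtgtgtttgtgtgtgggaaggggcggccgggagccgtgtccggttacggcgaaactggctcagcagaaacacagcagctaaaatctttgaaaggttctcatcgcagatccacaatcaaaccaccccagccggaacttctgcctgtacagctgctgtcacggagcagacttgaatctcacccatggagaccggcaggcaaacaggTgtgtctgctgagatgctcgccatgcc
TAF11L7: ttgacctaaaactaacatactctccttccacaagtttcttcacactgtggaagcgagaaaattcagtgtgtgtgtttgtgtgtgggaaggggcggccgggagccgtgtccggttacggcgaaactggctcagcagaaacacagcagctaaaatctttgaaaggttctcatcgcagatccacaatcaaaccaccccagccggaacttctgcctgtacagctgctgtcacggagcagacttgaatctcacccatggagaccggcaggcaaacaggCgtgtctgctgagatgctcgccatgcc

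Broad loci covered 776 kb in all, with a median width of 3807 bp and a range of 3004 to 32829 bp. Of the 147 loci, 48 were at least 5 kb and 12 at least 10 kb wide. A broad peak had a median width of 3822 bp in early G1, 3672.5 bp in mid G1 and 3944 bp in late G1, so that the bulk of each set lay close to the threshold. The narrowest broad peaks were 3005 bp in early G1, 3004 bp in mid G1 and 3002 bp in late G1, and the widest peaks below the threshold were 2994, 2976 and 2951 bp. The mid peak of 2976 bp, at chr16:90060541-90063516, had the top score of its list, 3100, which 4 broad mid peaks shared. It lay inside the locus chr16:90060419-90063658, a member through its late peak of 3240 bp.

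Broad loci were unevenly spread over the chromosomes. Chromosome 1 held 25 of them, chromosome 22 held 20, chromosome 17 held 15, chromosome 2 held 14, chromosome 10 held 12 and chromosome 21 held 10, while chromosomes 6, 11 and 12 held 0. Chromosome 1 thus had 17.01% of the broad loci, against 5.51% of the 14613 other ORCA regions, and chromosome 21 had 6.80% against 1.66%. Chromosome 17 had a similar share of both, 10.2% and 10.9%. These differences were not tested, since neighbouring loci are not independent.

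**Figure D1:**
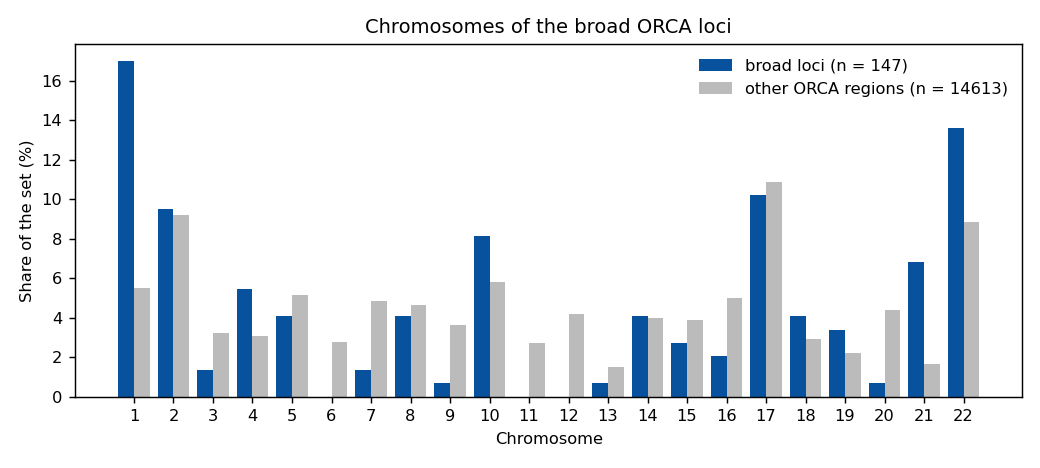
Share (%) of the 147 broad ORCA loci (blue) and of the 14613 other ORCA regions (grey) on each of chromosomes 1 to 22. Broad loci stand above the other regions on chromosomes 1 (17.01% against 5.51%), 21 (6.80% against 1.66%) and 22 (13.6% against 8.85%), and chromosomes 6, 11 and 12 hold no broad locus.

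Many broad loci lay beside centromeres. Of the 147 broad loci, 62 lay within 5 Mb of an hg19 centromere gap, the unsequenced stretch that stands for a centromere (42.2%, exact binomial interval 34.1 to 50.6), against 14.8% of the other ORCA regions (interval 14.3 to 15.4) and 15.1% of all ORCA regions. Other ORCA regions of 2000 bp or more were near a centromere gap in 35.7% of 297 cases (interval 30.2 to 41.4), which overlaps the interval of the broad loci. When the large heterochromatin gaps next to the centromeres of chromosomes 1, 9 and 16 were joined to them, a choice made after seeing the data, 73 loci qualified (49.7%, interval 41.3 to 58.0), against 39.1% of the other regions of 2000 bp or more (interval 33.5 to 44.9) and 15.8% of all other regions. These intervals cover counting error only. At chromosome ends the shares lay close together, since 9 broad loci (6.12%, interval 2.84 to 11.3) lay within 1 Mb of an end, against 5.21% of the other regions and 5.22% of all regions.

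Many broad loci had another broad locus nearby. With a distance of at most 100 kb between neighbours, 101 of the 147 loci fell into 32 clusters, and 52 lay in 10 clusters of 4 or more. The same count was not made for other ORCA regions, so grouping is not shown to be particular to broad loci. A gap of at most 1 kb separated 17 pairs of neighbours. The clusters in the next sentences were chosen after their values were seen. The largest, at chr22:25709838-25791998, held 8 loci, of which 7 were broad in early G1, 2 in mid G1 and 0 in late G1. Next came chr17:21207345-21327825 with 7 loci, of which 6 were broad in early G1, 4 in mid G1 and 3 in late G1. Near the chromosome 21 centromere gap, chr21:11105898-11148675 held 5 loci, all broad in early G1, 3 in mid G1 and 2 in late G1. The early list had the most broad loci in each of these 3 clusters. Other clusters of 5 loci varied. At chr2:91758991-91850357, 5 loci were broad in early G1, 2 in mid G1 and 1 in late G1, and at chr8:86726393-86830260, 5, 2 and 0. At chr1:16942756-16975863 the numbers were 3, 3 and 1, and at chr4:49133451-49333820 they were 0, 4 and 2. Over all 147 loci the mid list had the most, 99 against 85 early and 44 late.

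The next question was whether a locus that was broad at one stage was broad at the others. A locus was called broad in a list if it had a peak of at least 3000 bp there, split if it had 2 or more narrower peaks, and narrow if it had 1 narrower peak. By these names 85 loci were broad in early G1, 99 in mid G1 and 44 in late G1, and 23 were split in early G1, 13 in mid G1 and 6 in late G1. A single narrower peak stood at 24 loci in early G1, 16 in mid G1 and 26 in late G1. No peak at all was found at 15 loci in early G1, 19 in mid G1 and 71 in late G1. These numbers were not computed per list for other ORCA regions, so they are not shown to be particular to broad loci. The late list has 991 peaks, against 8531 early and 8275 mid peaks, so the longer lists were also shortened to their 991 peaks of highest score. Then 69 loci were broad in early G1, 78 in mid G1 and 44 in late G1, of 124 in all. Broad peaks mostly score high, with a median percentile of 97.4 in the early and in the mid list. A cut by score therefore keeps most of them, and it does not equalize read depth. These counts cannot tell how much of the difference between stages comes from list length.

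**Figure D2:**
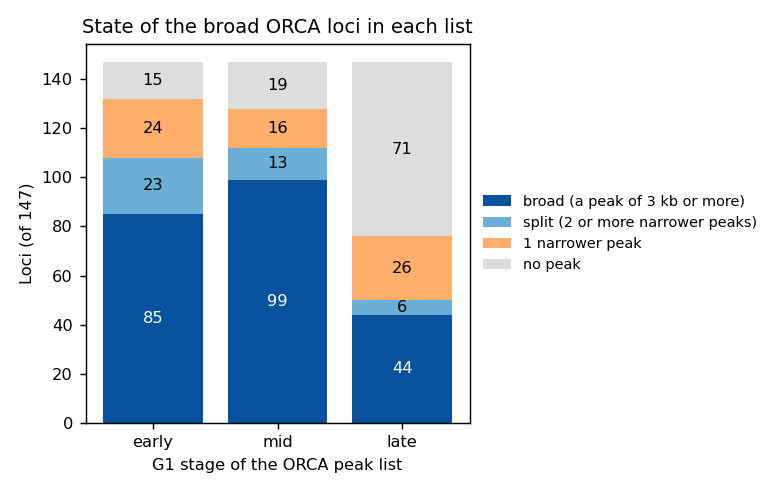
Number of the 147 broad ORCA loci (y axis) that were broad, split into narrower peaks, held by 1 narrower peak or without a peak in the early, mid and late list (x axis). Broad loci number 85, 99 and 44, and loci without a peak 15, 19 and 71.

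Of the 147 loci, 19 were broad at all 3 stages, 43 at 2 stages and 85 at a single stage. The commonest pattern was broad in early and mid G1 with no late peak, at 25 loci. Next came broad at all stages, at 19 loci, and broad in early G1 with no peak in the other lists, at 14 loci. Among the 85 loci broad in early G1, 48 were broad in mid G1 (56.5%), 10 were split, 11 were narrow and 16 had no mid peak. In late G1 24 of them were broad (28.2%) and 48 had no peak. Among the 44 loci broad in late G1, 28 were broad in mid G1 (63.6%) and 24 in early G1 (54.5%), while 5 had no mid peak and 5 no early peak. A peak of any width was present in all 3 lists at 64 loci (43.5%, interval 35.4 to 52.0), in 2 lists at 61 and in 1 list at 22. A peak in all 3 lists was found at 32.3% of the 297 other ORCA regions of 2000 bp or more (interval 27.0 to 38.0) and at 3.18% of all ORCA regions, most of which are far narrower.

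Where a broad locus was made of several peaks of 1 list, the pieces often nearly touched. In early G1 40 loci held 2 or more peaks, and 27 of the 52 gaps between them were at most 100 bp. In mid G1 this was 18 of 34 gaps in 25 loci, and in late G1 11 of 17 gaps in 13 loci. The median gap was 97 bp in early G1, 86 bp in mid G1 and 79 bp in late G1. A locus counted as split can thus differ from one counted as broad by a gap shorter than 100 bp. Of the 147 loci, 35 were broad at some stage and split at another. With the longer lists shortened to 991 peaks, this was 12 of 124 loci. That cut by score also takes out narrower peaks of low score, so a lower number of split loci can follow from the cut itself.

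At the loci broad at all stages the widths of the 3 lists lay close together. These loci were chosen for a peak of at least 3000 bp in each list. Most broad peaks lie close to that threshold, so the choice itself favours similar widths. Over these 19 loci the widest peak had a median of 3807 bp in early G1, 3800 bp in mid G1 and 4666 bp in late G1. Within a locus the widest stage exceeded the narrowest by a median factor of 1.18, with a range of 1.01 to 1.93. The widest peak of the 3 stages was the late one at 10 loci, the mid one at 6 and the early one at 3. Among the 5 with the best mean score rank was chr7:56437789-56440908, next to the chromosome 7 centromere, with peaks of 3120 bp in early G1, 3091 bp in mid G1 and 3095 bp in late G1. Another was chr5:34186808-34194781, with peaks of 7914, 7575 and 7974 bp at the early, mid and late stage. The other 3 of the 5 were in the tRNA, D4Z4 and SST1 arrays described below.

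**Figure D3:**
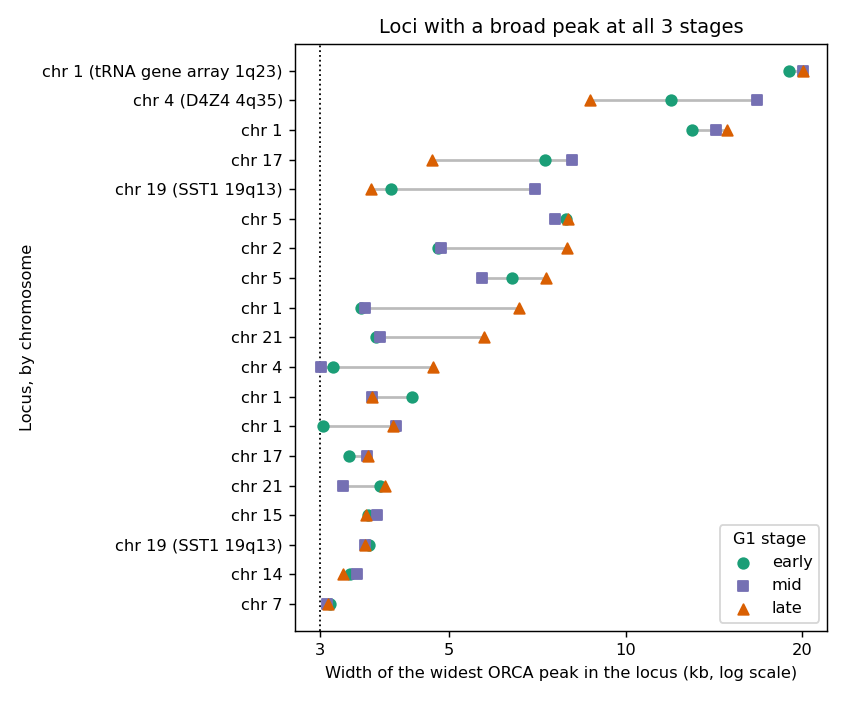
Width of the widest ORCA peak (kb, log scale) in early (circles), mid (squares) and late G1 (triangles) at the 19 loci that were broad at all 3 stages, 1 row per locus. The dotted line is the 3 kb threshold. At most loci the 3 stages lie close together, with a median factor of 1.18 between the widest and the narrowest. The loci were chosen for a peak of at least 3 kb at each stage, which limits how narrow the narrowest can be.

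Some of the 10 widest loci differed strongly between lists. At chr21:9835709-9848560 late G1 had a single peak of 12852 bp, while the locus held peaks of 3822, 786 and 1972 bp in early G1 and of 1138, 2208 and 1509 bp in mid G1. None of its bases lay in a MeDIP peak. At the other end, the chr19:36783424-36800154 locus was a single early peak of 16731 bp, with a score of 337.17, and had no mid or late peak. The chr2:91798246-91809667 locus, beside the chromosome 2 centromere, was an early peak of 11422 bp with no mid or late peak, and its score of 51.7 was near the lowest in the list, 50. Broad peaks mostly scored high, with exceptions such as this one. Their median score lay at percentile 97.4 of the early, 97.4 of the mid and 82.8 of the late list. Scores below the median of their list were found at 3 broad early, 10 broad mid and 6 broad late peaks.

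Listed tandem repeat arrays held 3 of the 10 widest loci, the first 2 in width among them. Of 13 arrays and gene clusters looked up by their hg19 position, called listed arrays here, 7 held a broad locus. Their 19 loci made up 19.7% of the bases of all broad loci. Of the 19, 5 merely lay in a 450 kb window around U1 snRNA genes and were not shown to be in a tandem repeat. The positions are windows drawn from general knowledge of the human genome, since no hg19 annotation was used here. The widest locus, chr1:161409833-161442661, lay in the tRNA gene array at 1q23, where a unit with several tRNA genes is repeated. It held a pair of peaks in each list, of 19004 and 12665 bp in early G1, 20077 and 12708 bp in mid G1, and 20128 and 12593 bp in late G1. The wider peak of each pair was the widest broad peak of its list, and the pieces were 541 bp apart in early G1, 44 bp in mid G1 and 2 bp in late G1. The locus was thus covered almost end to end at all 3 stages. MeDIP peaks covered 29311 of its 32829 bp (89.3%), the highest share among loci of 5 kb or more, against 0.816% of flanks of the same width on either side.

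The D4Z4 array at 4q35 was the next in width, at chr4:190987781-191014511. It was covered by 4 early peaks of 3631, 3941, 11964 and 7086 bp, by 3 mid peaks of 4288, 5544 and 16763 bp, and by 4 late peaks of 3257, 6062, 8691 and 6412 bp, each of them broad. MeDIP peaks covered 79.3% of the locus, against 4.47% of its flanks. The copy of D4Z4 at 10q26 differed between lists. It held 3 broad early peaks of 12410, 3269 and 3279 bp, no mid peak, and 1 late peak of 5746 bp, and MeDIP peaks covered 81.0% to 81.9% of its 3 loci. The flanks of the widest of them were covered to 12.3%, and those of the last to 56.7%. The flanks of the locus between them, only 66 bp long once its neighbours were taken out, were covered in full. The single mid peak in the 10q26 window, 1766 bp wide with a score of 866.34, lay outside these loci. Reads of the 4q35 and 10q26 units can match both, and the split of reads between them was not tested.

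MeDIP peaks were regularly spaced in some of the arrays. At 4q35 there were 15 MeDIP peaks, and a peak and the next but one started a median of 3294 bp apart, within 50 bp of that in 11 of 13 cases. At 10q26 the same distance had a median of 3306.5 bp, within 50 bp in 9 of 10 cases. The tRNA array had 6 MeDIP peaks, the last 4 of which started 7384, 7404 and 7403 bp apart. In the SST1 array at 19q13, SST1 being a satellite-like repeat known to lose methylation in tumours, 8 MeDIP peaks started 2434 to 2629 bp apart, with a median of 2525 bp. Elsewhere the distances ranged more widely. MeDIP peaks started 9302 to 20556 bp apart at REXO1L and 888 to 13067 bp apart in the U1 window, and the first 2 distances in the tRNA array were 3988 and 3011 bp.

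**Figure D4:**
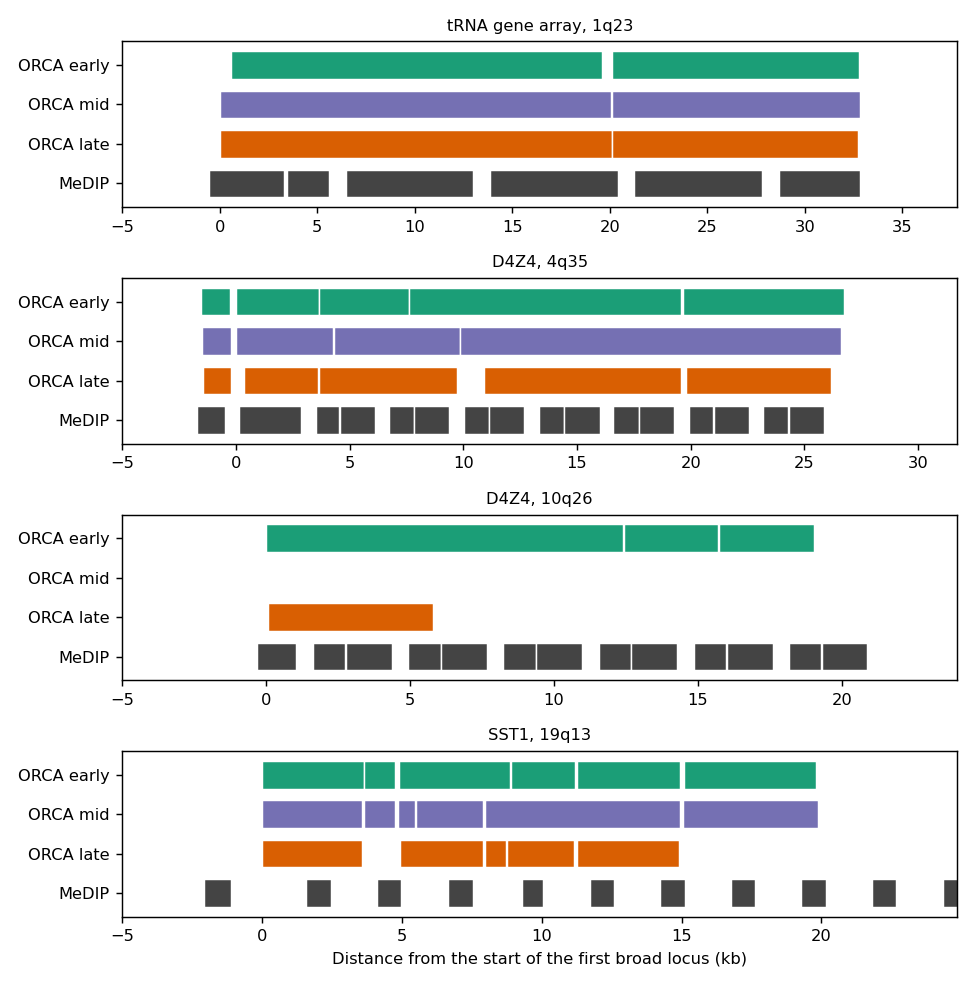
ORCA peaks of early, mid and late G1 and MeDIP peaks (boxes) along the tRNA, D4Z4 (4q35 and 10q26) and SST1 arrays, by distance in kb from the start of the first broad locus. ORCA boxes span most of the tRNA and 4q35 loci at each stage, the last of the 19q13 loci has no late box, and 10q26 has no mid box. In D4Z4 a MeDIP box and the next but one start about 3.3 kb apart (median 3294 and 3306.5 bp).

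SST1 at 19q13 held 3 loci. The first, chr19:37759438-37763094, had peaks of 3646 bp in early G1, 3583 bp in mid G1 and 3591 bp in late G1. The second, chr19:37764346-37774400, had pieces of 3971, 2297 and 3687 bp in early G1, of 586, 2399 and 7002 bp in mid G1, and of 2951, 754, 2401 and 3667 bp in late G1. The third, chr19:37774480-37779304, had peaks of 4718 bp in early G1 and 4825 bp in mid G1 and none in late G1. MeDIP peaks covered 24.2%, 33.1% and 31.7% of these loci, in that order, against 35.8%, 31.5% and 32.3% of their flanks. The 100 kb window around them held 18 MeDIP peaks. The SST1 array at 4q28 had no broad peak at any stage. It held 13 early, 17 mid and 4 late peaks, the widest of them 1139 bp, so that the 2 SST1 arrays differed in the width of their peaks at all 3 stages.

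The same spacing occurred outside the listed windows, at a pair of neighbouring loci named here after their values were seen. At chr19:36776407-36783420 and chr19:36783424-36800154, which were early peaks of 7014 and 16731 bp with no mid or late peak, 10 MeDIP peaks with a median width of 880.5 bp started 2514 to 2537 bp apart. In the SST1 array at 19q13 the median distance was 2525 bp and the median MeDIP width in the window 868 bp. The sequence at the pair was not read, so no repeat is named there. Of the 10 loci with 4 or more MeDIP peaks, 6 lay outside the listed arrays, and only these 2 of the 6 had all distances within 100 bp of their median. Counted with the arrays, they bring the array loci to 21 and their share of locus bases to 22.8%, and leave 126 loci outside, covered by MeDIP peaks to 29.8%.

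The REXO1L array at 8q21, copies of a gene related to an RNA exonuclease, held 5 broad loci between 3060 and 8416 bp wide. All 5 were broad in early G1, 2 in mid G1 and 0 in late G1. The early peaks were 3060, 5502, 6266, 8416 and 3650 bp wide, and the mid peaks at the broad ones 5051 and 4659 bp. Each locus held 1 MeDIP peak and was covered to between 37.1% and 72.5%, with at most 0.212% of the flanks covered. The TAF11L array had 1 locus, chr5:17591813-17597047, a single mid peak of 5235 bp that was in early G1 a pair of 3567 and 1794 bp lying 1 bp apart, with no late peak. MeDIP covered 54.9% of it, against 43.1% of its flanks.

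A 450 kb window around the U1 snRNA genes at 1p36, which encode the RNA of a splicing particle, held 5 loci between chr1:16942756 and 16975863. They were 3004 to 8245 bp wide, with 3 broad in early G1, 3 in mid G1 and 1 in late G1. The late one was a peak of 7186 bp at a locus that held peaks of 1953 and 3982 bp in early G1 and none in mid G1. MeDIP covered 17.98% to 100% of these 5 loci. The narrowest locus of all, chr1:16942756-16945759 with a mid peak of 3004 bp, is among them. Where in this window the genes lie was not examined.

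Not every array had broad ORCA peaks. The 5S ribosomal RNA genes at 1q42 and the RS447 repeat with the USP17L genes at 4p16 had no ORCA peak at any stage, while MeDIP peaks covered 36.7 kb of the first window in 21 peaks and 32.3 kb of the second in 40 peaks. The RNU2 array at 17q21, which encodes U2 snRNA, held 2 early, 4 mid and 3 late peaks of at most 1855 bp. The PRR20 array at 13q21 held 4 early, 6 mid and 0 late peaks of at most 1319 bp, with 18.5 kb of MeDIP peaks. The repeated kringle exons of LPA, the gene of apolipoprotein(a), had 1 mid peak of 327 bp. Each of these 5 windows held MeDIP peaks without a broad ORCA peak.

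The last question was how much of the broad loci lay in MeDIP peaks. Of the 147 loci, 95 held at least 1 base of a MeDIP peak (64.6%, interval 56.3 to 72.3), against 33.1% of the other ORCA regions and 33.5% of all ORCA regions. A wider region has more bases that can meet a MeDIP peak. Among other ORCA regions the share was 31.1% under 1 kb, 45.1% from 1 kb to 2000 bp and 59.3% at 2000 bp or more (interval 53.4 to 64.9). Counted in bases, MeDIP peaks covered 288 kb or 37.2% of the broad loci, against 39.4% of the other ORCA regions of 2000 bp or more. The share of covered bases in the broad loci was thus not above that in the other wide ORCA regions.

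Against their surroundings the loci stood out. Flanks as wide as the locus on either side, without bases of other broad loci, were covered to 13.95%, and for other ORCA regions of 2000 bp or more the flanks were covered to 20.5%. The covered share was higher than that of the flanks at 77 loci and lower at 28, while 41 loci had no MeDIP base in either. The median covered share was 29.3% over all loci (interval 20.8 to 39.8), with quartiles of 0 and 66.4%. It ranged from 52 loci without a MeDIP base to 6 that were covered in full.

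Cover differed by place. The 74 loci away from centromere and heterochromatin gaps were covered to 48.7% of their bases, with a MeDIP base at 79.7% of them (interval 68.8 to 88.2). The 73 loci near such gaps were covered to 23.7%, with a MeDIP base at 49.3% (interval 37.4 to 61.3). For all other ORCA regions the same shares of bases were 29.6% away from gaps and 27.8% near them. Those regions are far narrower, with median widths of 525 bp away from gaps and 661 bp near them. The other regions of 2000 bp or more were not divided by place, so the difference is not shown to be particular to broad loci. The 19 loci in listed arrays, 5 of them in the U1 window, were all touched by a MeDIP peak. They were covered to 66.6%, against 29.9% of the bases of the 128 loci outside the listed arrays. All 19 are among the 74 loci away from gaps, so place and array are not separate contrasts. They made up 152894 of the 417639 bp of those 74 loci and held 101.8 kb of the 203.3 kb under MeDIP peaks there. The part of read mapping in these shares was not tested.

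Bases of the loci that lay under ORCA peaks of more stages were covered more. Of the bases with an ORCA peak in 1 list, 256 kb in all, MeDIP peaks covered 23.6%. The share was 35.03% for the 291 kb with a peak in 2 lists and 55.04% for the 229 kb with a peak in all 3. The 2 widest loci, in the tRNA and 4q35 D4Z4 arrays, weigh heavily in the last share. They had ORCA peaks on most of their bases at each stage and held 29311 and 21192 MeDIP bases. The share without them was not computed. Counted by locus, the median covered share was 3.65% at the 22 loci with a peak in 1 list (interval 0 to 37.1). It was 22.96% at the 61 with peaks in 2 lists (interval 0 to 37.1) and 45.2% at the 64 with peaks in all 3 (interval 27.1 to 62.3). These intervals overlap, so the medians do not separate loci with a peak in 1 list from those with peaks in 2.

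**Figure D5:**
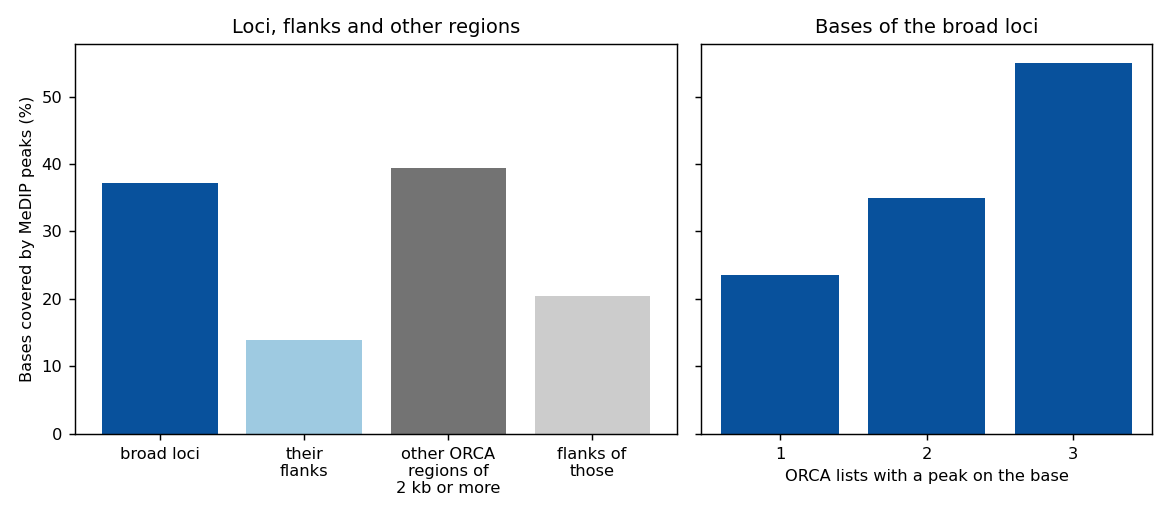
Left, share (%) of bases under MeDIP peaks in the 147 broad loci, their flanks, other ORCA regions of 2 kb or more and the flanks of those (37.2, 13.95, 39.4 and 20.5%). Bases of other broad loci were taken out of the flanks of the broad loci only. Right, the same share for the bases of the broad loci by the number of ORCA lists with a peak on the base (23.6, 35.03 and 55.04%).

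Some of the widest loci had no MeDIP base at all, as did 13 of the 48 loci of 5 kb or more. The first 3 of them by position were chr1:2584184-2592064, chr1:2598497-2613483 and chr1:148927356-148933931. The one at chr1:2598497-2613483 was broad at all stages, with peaks of 12992 and 2685 bp in early G1, 14270 bp in mid G1 and 14927 and 1497 bp in late G1. It belonged to a cluster of 4 loci between chr1:2584184 and 2623260, none of which held a MeDIP base. Another without a MeDIP base, chr21:11122618-11133357, had peaks of 10732 bp in early G1 and 10312 bp in mid G1 and none in late G1. Part of the bases lay in MeDIP peaks at chr17:21309348-21321379, covered to 37.3%, and chr21:11105898-11117666, covered to 24.6%, with peaks of 11745 bp in early G1, 1561 bp in mid G1 and 10267 bp in late G1. Behind the tRNA array and 10q26 D4Z4, the third highest share among loci of 5 kb or more was 80.5% at chr22:28191877-28198668.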

How the data were processed

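The submitters' processing notes name Trimmomatic, Bowtie 0.12.7 and the build hg19, also under its other name GRCh37. The authors deposited 1 list of peaks per immunoprecipitated sample, with start, end and a score per peak, the caller's own score, which was at least 50. The names of the peaks are those of MACS, and the late list bears another number beside that name than the other ORCA lists. The late list may thus come from another version of the caller. Caller version, settings, control, read numbers and the handling of reads with several matches are not given in the sources used here. A peak's width depends on the caller's threshold and merging distance, which may differ between lists.

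Broad peaks were joined where they shared at least 1 bp. MeDIP cover is the number of bases of a locus inside MeDIP peaks. Chromosome lengths, centromere gaps and the windows of arrays were written by hand for hg19, the first of these to 0.1 Mb, and 0 peaks lay inside a gap or past an end by more than that. Intervals are 95% exact binomial (Clopper-Pearson), for medians from order statistics, and cover counting error only. With 1 sample per group, no test between stages was run. Named loci were the 10 widest, all in arrays, the widest peak per stage, the 5 broad at all stages with the best mean score rank, the 3 highest and 3 lowest in MeDIP cover among those of 5 kb or more, and the peaks next to the threshold. The loci, lists and rules were chosen with earlier results of these data known. The code was tested on simulated lists. Genes at the loci were not assigned. Alternatives are in the closing section. Python 3.11.15, numpy 2.4.6, pandas 2.3.3, scipy 1.17.1 and matplotlib 3.10.9 were used.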

Additional observations from a re-analysis of the deposited data

How the results depend on the processing

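The threshold sets the number of loci. With at least 2000 bp there were 376 loci, 224 broad in early G1, 259 in mid G1 and 99 in late G1, 51 at all stages and 59 split at some stage. With at least 5 kb these numbers were 45, 27, 24, 17, 5 and 13. When the longer lists were shortened by score to the length of the late list, 12 loci were split. That cut also removes narrower peaks of low score. Keeping in the ends of chromosomes 7 and 8 gave 257 loci, 141 broad in early G1 and 178 in mid G1, 106 split, 77.4% with a MeDIP peak, a median MeDIP cover of 52.3% and 24.1% near a centromere gap. The other 74 of 94 recomputed values moved by less than 1.5 times (counts) or stayed within the interval of the reported value (shares and the median). These include all values from joining peaks within 5 kb, from an overlap of 50%, from scores at or above the median, from adding chromosome X, and from leaving out the late list or the arrays, which were both added after seeing the data. Read depth was not given, so a missing peak does not show that ORCA or methylation was absent. No paired analysis was possible because each group has 1 sample.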
